A study of Mus musculus with 6 samples.

Results

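The collagen gene family was described in cultured bone marrow cells of mice with acute graft-versus-host disease (aGVHD, the attack of donor immune cells on the host after a transplant). Its members were the 44 protein-coding genes, of 49328 genes listed, whose symbol in the mouse annotation GENCODE M21 (genome build GRCm38) reads Col, a number, a and a number. Total RNA was sequenced from 6 libraries. All 6 came from CB6F1 mice, an F1 hybrid strain, with aGVHD, and from cells labelled MSCs (mesenchymal stromal cells, the adherent stromal cells of marrow) that were released by digestion of whole marrow and grown in DMEM with high glucose, FBS and P/S. Cells of 3 libraries received a compound named only R, at 0.5 um as the label writes the unit, and cells of the other 3 its vehicle, DMSO. No source used here states the age of the animals, what R is or how long the cells were exposed. Libraries of mice without aGVHD were not analysed here, so both groups carry the disease. The labels do not say whether the replicates were separate animals or cultures, and the p-values therefore measure the spread between these libraries, which may be technical.

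Collagens are matrix proteins whose chains wind into a triple helix, in which every turn needs a glycine. Fibrillar chains carry a long unbroken helix and pack into the fibrils of bone, skin and tendon. Basement membrane chains carry a helix with many breaks and form a flexible sheet network. FACIT chains (fibril-associated collagens with interrupted triple helices) coat fibrils, and beaded filament chains form microfibrils around cells. Transmembrane chains stay anchored in the cell surface. Stromal cells and osteoblasts are the main makers of fibrillar collagen in marrow and bone.

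The class difference can be read from the coding sequence, which the GENCODE transcripts gave for all 44 members. The longest unbroken run of triplets that start with a glycine codon (GGN) was 216 to 344 triplets in the 11 fibrillar chains, with a median of 338. It was 39 to 66 triplets in the 6 basement membrane chains, 32 to 113 in the 9 FACIT chains, 37 to 87 in the 6 beaded filament chains and 40 to 55 in the 4 transmembrane chains. The 8 remaining chains (short network-forming chains, the anchoring fibril chain, multiplexins and unclassed chains) had runs of 23 to 75 triplets. The fibrillar range did not overlap that of any other class. A stretch of one gene from each of the 3 classes in which a member passed the test is shown, 5′ to 3′ on the coding strand, with the glycine codons that open a triplet of a run in capitals. They are codons 168 to 187 of Col1a1 (chr11:94936224-94953042, plus strand), codons 154 to 173 of Col4a1 (chr8:11198423-11312826, minus strand) and codons 1153 to 1172 of Col16a1 (chr4:130047840-130099283, plus strand).
Col1a1: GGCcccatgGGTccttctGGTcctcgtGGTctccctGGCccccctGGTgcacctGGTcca
Col4a1: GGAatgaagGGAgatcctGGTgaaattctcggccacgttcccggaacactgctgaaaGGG
Col16a1: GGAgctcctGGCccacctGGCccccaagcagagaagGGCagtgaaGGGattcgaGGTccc
In the Col1a1 stretch a glycine codon opens every triplet. In the Col4a1 and Col16a1 stretches the spacing is broken once and then resumes. Over the whole coding sequence the longest run was 338 triplets in Col1a1, 40 in Col4a1 and 52 in Col16a1, and the runs were separated by 1 break in Col1a1, 22 in Col4a1 and 22 in Col16a1.

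Levels were read as FPKM (fragments per length of gene and number of counted fragments), a unit that corrects for gene length and library depth and that the authors had computed. Each library held an estimated 17070000 to 21750000 reads. A gene was tested when at least 3 of the 6 libraries reached 1 FPKM, and this held for 11862 genes. Log2 changes are differences of R from vehicle in log2(FPKM + 1), so changes of low genes come out too small. A gene is called higher or lower where its Benjamini-Hochberg adjusted p, over all tested genes in limma, was under 0.05. Libraries correlated at a Pearson's r of 0.977 to 0.986 within a group and 0.936 to 0.963 between groups, across genes, which are not independent replicates. The label MSCs was checked against marker genes. Of 15 listed stromal genes 11 were tested. Among these 11 were the intermediate filament gene Vim, at 617 ± 61.0 FPKM in vehicle (SD, n = 3), and Pdgfrb, a growth factor receptor of mesenchymal cells, at 33.9 ± 5.22. Thy1, which encodes the MSC surface marker CD90, stayed between 0.0554 and 1.58 FPKM, and the leptin receptor gene Lepr, a marker of marrow stroma, between 0.0332 and 0.220. Genes of a macrophage and monocyte list were abundant: all 18 were tested, and their summed level was 13126 to 21454 FPKM across libraries. The 15 stromal genes other than collagens summed to 776 to 1246 FPKM. Each sum was mostly 1 gene, Lyz2 at 8707 to 12885 FPKM and Vim at 548 to 1014. The lists therefore do not give the proportions of the cell types. In bulk RNA, fewer cells of a type and less RNA per cell cannot be told apart.

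Summed collagen transcripts were higher in every R library than in any vehicle library, and so were the sums of the fibrillar, basement membrane and FACIT classes but not of the beaded filament and transmembrane classes. The summed level of the 44 members was 1498, 1263 and 1769 FPKM in R replicates 1, 2 and 3 and 620, 1061 and 939 FPKM in vehicle replicates 1, 2 and 3. The groups did not overlap, and vehicle replicate 1 was the lowest library. The sums are given as a description, without a test. The group means were 873 ± 228 FPKM in vehicle and 1510.4 ± 253 in R (SD, n = 3), a ratio of 1.73. As a share of the summed FPKM of all genes, collagens made up 0.371% to 0.567% in R and 0.184% to 0.323% in vehicle. The sum is carried by few genes: Col1a1 and Col1a2 together held 38.6% to 50.5% of it in R and 33.0% to 48.2% in vehicle.

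**Figure D1:**
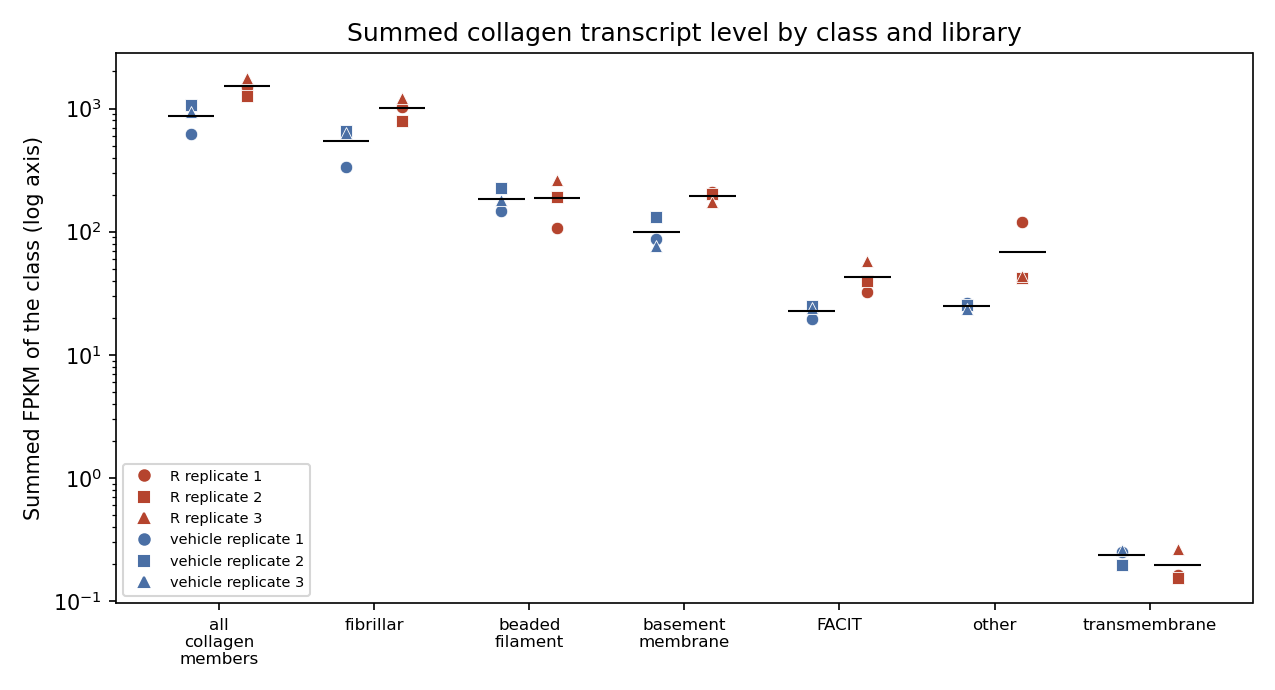
Summed FPKM of the collagen genes by class on a log axis, with 1 point per library (vehicle in blue, R in red) and a black line at each group mean. The R libraries lie above the vehicle libraries for all members, the fibrillar, basement membrane, FACIT and other classes, while the beaded filament and transmembrane sums overlap.

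Of the 44 members, 20 were high enough to be tested. Of these 20, 4 were called higher in R (Col5a2, Col4a1, Col4a2 and Col16a1) and 0 lower in limma, beside 2.39% of all tested genes called higher and 4.43% called lower. At an unadjusted p under 0.05 the count was 9 members, all 9 with a positive change, beside 24.0% of all tested genes in either direction. Without a filter on low values 0 members were called, and with 1 library left out 1 to 4. In 9 of the 20 every R library lay above every vehicle library, and in 0 every R library lay below, beside 13.9% and 15.5% of all tested genes. The log2 change was positive in 17 members and negative in 3, with a median of 0.66 against -0.0037 over all tested genes. These 20 had to reach 1 FPKM in some libraries, so they are not a sample of the family.

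**Figure D2:**
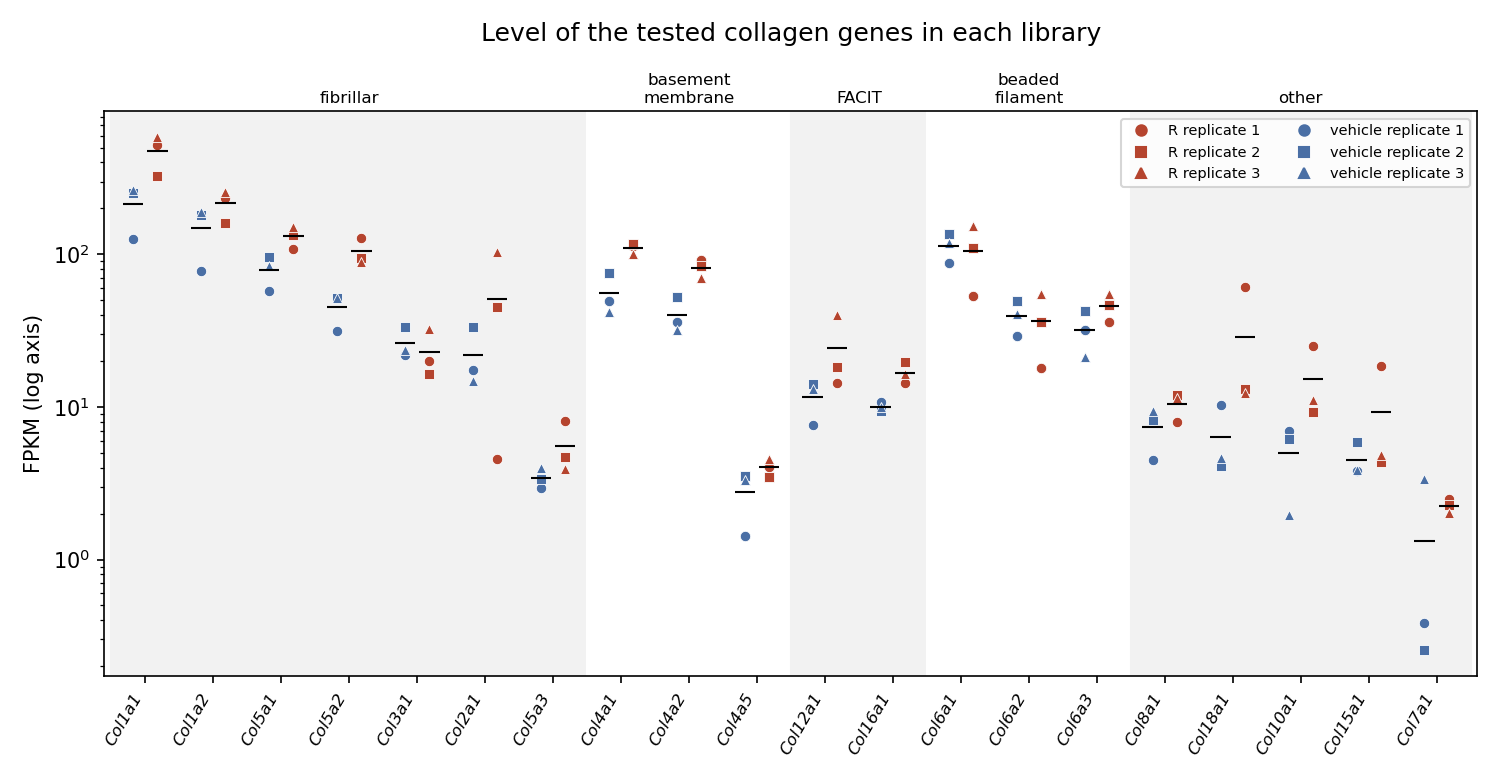
FPKM of the 20 tested collagen genes on a log axis, with 1 point per library, grouped by class and ordered by the vehicle mean, and a black line at each group mean. The R points of Col1a1, Col5a1, Col5a2, Col4a1, Col4a2, Col12a1, Col16a1, Col18a1 and Col10a1 lie wholly above the vehicle points.

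**Figure D3:**
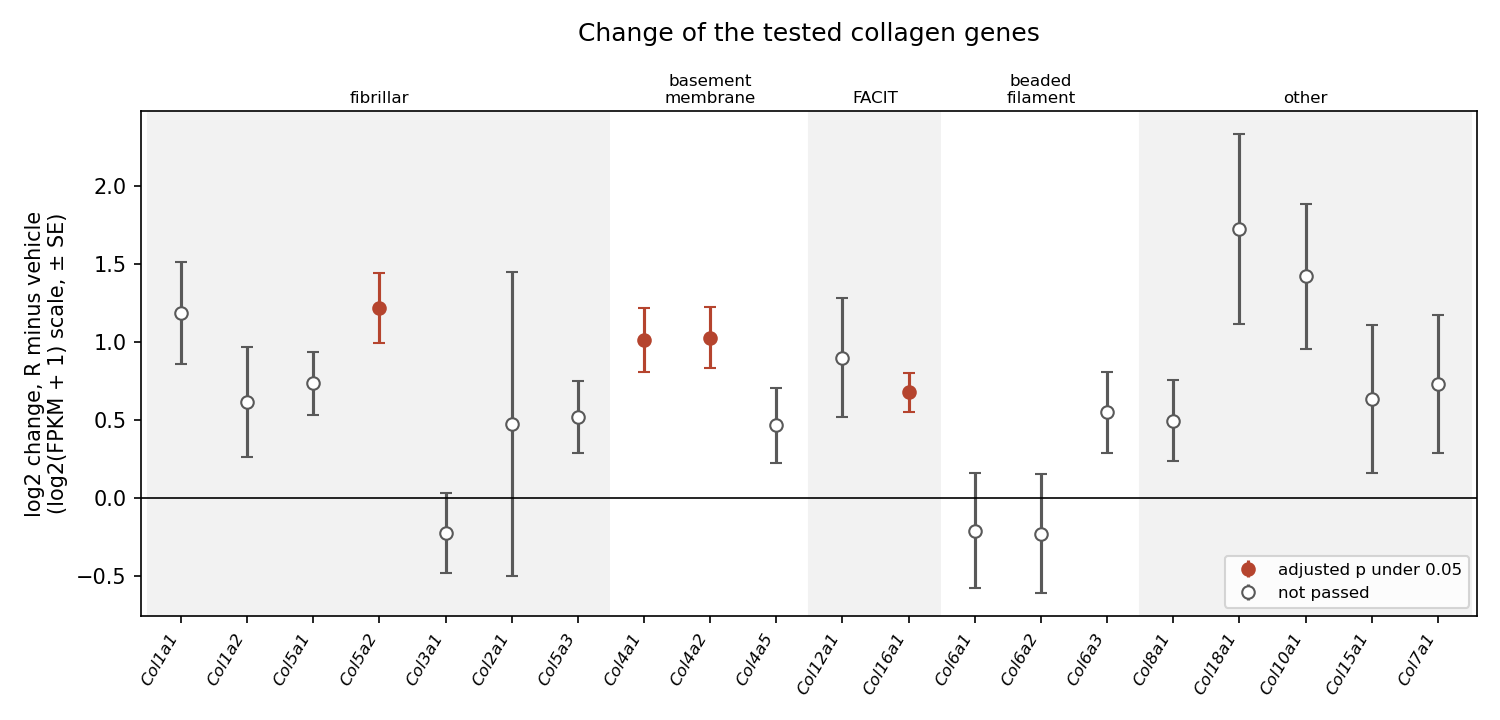
The log2 change of the same 20 genes (R minus vehicle, log2(FPKM + 1) scale) with its moderated SE, with genes at an adjusted p under 0.05 filled in red. Of the 3 negative changes, none is further from 0 than -0.23.

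Among the fibrillar chains, 7 of 11 were tested, 1 was called, as higher, and the median log2 change was 0.62. Col5a2 (chr1:45374321-45503282, minus strand) encodes a chain of type V collagen, which starts the assembly of fibrils. Its level was 129, 95.1 and 89.7 FPKM in R replicates 1, 2 and 3 and 31.3, 51.5 and 52.0 FPKM in vehicle replicates 1, 2 and 3. The groups were well apart, with the lowest R library above the highest vehicle library. The mean rose from 45.0 ± 11.8 to 105 ± 21.2 FPKM (SD, n = 3; log2 change 1.22, SE 0.22, limma adjusted p = 0.0247). Without R replicate 1, 2 or 3 its adjusted p was 0.0524 to 0.0661. Its partner chain gene Col5a1 had 109, 134 and 151 FPKM in R and 57.9, 95.7 and 84.5 FPKM in vehicle, again with no overlap (log2 change 0.74, SE 0.20, limma adjusted p = 0.0791), and did not pass. Col5a3, the minor type V chain, was low at 2.93 to 8.14 FPKM in all libraries, with overlapping groups (log2 change 0.52, SE 0.23; 0.26 without R replicate 1).

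Col1a1 had the highest mean FPKM of the collagen genes in both groups. That rank depends on the exon length, 6563 bases for Col1a1 and 12426 for Col1a2 in GENCODE. In vehicle replicates 1, 2 and 3 Col1a2 had more estimated reads (16515, 41949 and 47010) than Col1a1 (14217, 31020 and 34545). In R Col1a1 had more in every library. Col1a1 encodes the main chain of type I collagen, the protein of bone and scar. It stood at 523, 327 and 588 FPKM in R replicates 1, 2 and 3 and at 127, 252 and 263 FPKM in vehicle replicates 1, 2 and 3. The lowest R library was above the highest vehicle library, but the spread within each group was wide. The mean was 214 ± 75.7 FPKM in vehicle and 479 ± 136 in R (SD, n = 3; log2 change 1.19, SE 0.33), and the change missed the threshold in limma (adjusted p = 0.0791). Col1a2, which encodes the second chain of the same trimer, had 234, 161 and 256 FPKM in R and 77.9, 180 and 189 FPKM in vehicle. Here R replicate 2 lay inside the vehicle range (log2 change 0.62, SE 0.35, limma adjusted p = 0.342), and without vehicle replicate 1 the change was 0.20.

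The 2 other tested fibrillar chains overlapped between the groups. Col3a1, the chain of the reticular fibres of soft tissue, was at 19.9, 16.5 and 32.5 FPKM in R and 21.9, 33.5 and 23.6 FPKM in vehicle (log2 change -0.22, SE 0.26, limma adjusted p = 0.659), and its change was -0.49 to -0.02 with 1 library left out. Col2a1, the chain of cartilage fibrils, varied most: 4.54, 45.3 and 103 FPKM in R and 17.4, 33.3 and 14.8 FPKM in vehicle. R replicate 1 was the lowest of all libraries and R replicate 3 the highest, and the log2 change of 0.48 had an SE of 0.98. It was 1.69 without R replicate 1 and -0.42 without R replicate 3. Of 9 chondrocyte markers 2 were tested, Sox9 at 1.63 to 5.47 FPKM and Comp at 0.590 to 6.21 FPKM, both with overlapping groups. The cartilage matrix genes Acan, Hapln1 and Cnmd were at or under 0.0302 FPKM in every library. These 3 were chosen from the marker lists after their values were seen. So were Thy1, Lepr, Pecam1, Kdr, Flt1, Epcam, Krt5, Krt14, Krt18, Lyz2, Cx3cr1, Cd68 and Acta2, which are named elsewhere.

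In the basement membrane class 3 of 6 chains were tested and 2 were called higher, with a median log2 change of 1.02. Col4a1 and Col4a2 encode the chains of the widespread type IV collagen of vessels and other tissues. Col4a1 was measured at 113, 117 and 101 FPKM in R replicates 1, 2 and 3 and at 49.6, 75.3 and 41.8 FPKM in vehicle replicates 1, 2 and 3. The R libraries were close to each other and all above the vehicle libraries. The mean rose from 55.6 ± 17.6 to 110 ± 8.26 FPKM (SD, n = 3; log2 change 1.02, SE 0.20, limma adjusted p = 0.0321). Col4a2 followed the same pattern, with 92.1, 83.8 and 69.7 FPKM in R and 36.2, 52.5 and 31.9 FPKM in vehicle. Its mean rose from 40.2 ± 10.9 to 81.9 ± 11.3 FPKM (SD, n = 3; log2 change 1.03, SE 0.19, limma adjusted p = 0.0257). The call of Col4a1 was lost without R replicate 1, 2 or 3 or vehicle replicate 1 (limma adjusted p 0.0705 to 0.114). That of Col4a2 was lost without R replicate 1 or 2 or vehicle replicate 1 (0.0754 to 0.0930). Endothelial cells also make these chains: 2 of 10 listed endothelial markers were tested and 0 were called in limma, with 1 at an unadjusted p under 0.05. The marker under 0.05 was Cdh5, at 1.08 to 3.39 FPKM in R and 0.419 to 0.976 in vehicle. It reached 1 FPKM in the R libraries only and so passed the filter only through the group where it was high. The endothelial list summed to 27.3 to 48.8 FPKM in R and 34 to 65 in vehicle, most of it Eng, which is also on the stromal list. The other 8 listed markers found in the table summed to 3.34 to 7.25 FPKM in R and 2.21 to 2.87 in vehicle. Of these 8, 5 were higher in every R library than in any vehicle library, beside 13.9% of all tested genes. However, 7 of the 8 were under the filter. Kdr and Flt1 had lower means in R (0.406 and 0.153 FPKM) than in vehicle (0.604 and 0.286), with overlapping groups. The defining marker Pecam1 was at 0.366 to 0.664 FPKM in R and 0.189 to 0.216 in vehicle. The part of endothelial cells in the type IV levels was not tested. Col4a5 was low, at 1.43 to 4.58 FPKM, with overlapping groups (log2 change 0.47, SE 0.24; 0.18 without vehicle replicate 1), and Col4a3, Col4a4 and Col4a6 were at or under 0.0886 FPKM.

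Col4a1 and Col4a2 lie head to head on opposite strands and their annotated genes overlap by 22 bases. A stretch beside both start sites is shown because both genes of the pair passed the test. It is chr8:11312768-11312797 on the plus strand of GRCm38.p6, from RefSeq. It lies upstream of the first base of Col4a2 (11312805) and, since Col4a1 starts at 11312826 and is read on the minus strand, inside the annotated span of Col4a1. The capitals mark a match to CCAAT that is part of the promoter window of Col4a2 and not, as a whole, of that of Col4a1.
Col4a2 and Col4a1: gctccCCAATttgttggcgctgccccctcc
Promoter windows of 300 bases were searched on both strands for the motif CCAAT, for the motif TATAAA and for the motif GGGCGG, none of which holds another. RefSeq held 38 windows for 35 members, and there was none for Col1a1, Col5a2, Col2a1, Col12a1, Col14a1, Col22a1, Col26a1, Col4a3 and Col9a3. CCAAT was found in 13 of the 38 windows (34.2%), against 37.4% of 32851 windows of all genes, and TATAAA in 5 (13.2%), against 13.6%. GGGCGG was found in 23 windows (60.5%), against 35.7%. A match describes the letters of these windows and does not show a bound site.

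Both tested FACIT chains had higher values in every R library than in any vehicle library. Col16a1, which encodes type XVI collagen, was at 14.3, 19.8 and 16.4 FPKM in R replicates 1, 2 and 3 and at 10.8, 9.35 and 9.99 FPKM in vehicle replicates 1, 2 and 3. The vehicle libraries were nearly equal. The mean rose from 10.03 ± 0.706 to 16.8 ± 2.77 FPKM (SD, n = 3; log2 change 0.68, SE 0.13, limma adjusted p = 0.0250). Without R replicate 3 or any of the 3 vehicle libraries its adjusted p was 0.0504 to 0.0881. Col12a1 encodes type XII collagen, which links fibrils in tendon and ligament. It had 14.3, 18.3 and 40.0 FPKM in R and 7.64, 14.2 and 13.1 FPKM in vehicle, where the lowest R value was barely above the highest vehicle value (log2 change 0.90, SE 0.38, limma adjusted p = 0.204). Without R replicate 3 the change was 0.48.

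The type VI chains of beaded filaments did not follow this pattern: 3 of 6 were tested, 0 were called in either direction, and their summed level was 108, 193 and 265 FPKM in R and 149, 228 and 181 FPKM in vehicle. At an unadjusted p under 0.05, too, the count was 0. Col6a1 was at 53.5, 110 and 154 FPKM in R and 87.1, 136 and 119 FPKM in vehicle (log2 change -0.21, SE 0.37, limma adjusted p = 0.787). Col6a2 was at 17.98, 36.0 and 54.96 FPKM in R and 29.2, 49.5 and 40.4 FPKM in vehicle (log2 change -0.23, SE 0.38). R replicate 1 was the lowest library for both genes and R replicate 3 the highest, and the changes were 0.21 and 0.19 without R replicate 1. Col6a3, the largest chain of the trimer, was at 36.1, 46.9 and 55.4 FPKM in R and 32.2, 42.5 and 21.1 FPKM in vehicle (log2 change 0.55, SE 0.26), with overlapping groups, and the change was 0.29 without vehicle replicate 3.

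Of the 8 chains outside these classes 5 were tested and 0 were called in limma, with 2 at an unadjusted p under 0.05, while 1 R library stood out. Col18a1 encodes a multiplexin of basement membranes whose end fragment is endostatin. Its level was 61.2, 13.2 and 12.3 FPKM in R replicates 1, 2 and 3 and 10.4, 4.10 and 4.62 FPKM in vehicle replicates 1, 2 and 3. All R libraries were above all vehicle libraries, and R replicate 1 was far above the rest (log2 change 1.72, SE 0.61, limma adjusted p = 0.142). Without R replicate 1 the log2 change was 0.998. Col15a1, the related multiplexin, had 18.6 FPKM in R replicate 1 and 3.80 to 5.91 in all other libraries, and its log2 change of 0.64 (SE 0.48) was 0.03 without that library. Col10a1, the chain of hypertrophic cartilage, was at 25.3, 9.20 and 11.1 FPKM in R and 6.91, 6.19 and 1.96 FPKM in vehicle (log2 change 1.42, SE 0.47, limma adjusted p = 0.119), with no overlap. Col8a1, a short network-forming chain, was at 7.99 to 12.1 FPKM in R and 4.47 to 9.44 in vehicle (log2 change 0.50, SE 0.26; 0.21 without vehicle replicate 1). Col7a1, the anchoring fibril chain of skin, was at 2.48, 2.27 and 2.03 FPKM in R and 0.382, 0.254 and 3.35 FPKM in vehicle. Vehicle replicate 3 was its highest library, and without it the change was 1.31 (limma adjusted p = 0.0049), where the full set gave 0.73 (adjusted p = 0.372). The other vehicle libraries were under 1 FPKM, so without replicate 3 the gene met the filter only through R, the group where it was high.

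R replicate 1 also had the highest levels of Col28a1, with 3.76 FPKM against 0.112 to 0.395 elsewhere, and of Col14a1, with 2.03 FPKM against 0.0998 to 0.412 elsewhere. Both genes were too low in the other libraries to be tested. In the same library the neural crest and Schwann cell factor Sox10 stood at 11.6 FPKM, against 0.420 to 1.997 in the others. Among the Schwann cell and epithelial markers 2 were tested, Sox10 and S100b, and S100b was called higher (1.71 ± 0.898 to 5.72 ± 1.70 FPKM, SD, n = 3; limma adjusted p = 0.0401). That call was lost without R replicate 1 or 2 or vehicle replicate 1 or 3 (0.0687 to 0.118). The epithelial genes Epcam, Krt5, Krt14 and Krt18 were at 0 in every library. The part of such cells in the levels of Col28a1, Col14a1, Col15a1 and Col18a1 was not tested.

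The remaining members were low. In all, 24 of 44 were under the filter, with values from 0 to 3.76 FPKM, and 20 of them stayed under 1 FPKM in every library. Of the 24, 11 never had more than 10 estimated reads, and Col9a1, a cartilage chain, was at 0 throughout. Col11a1, a minor chain of cartilage fibrils, came closest to the filter, at 1.31, 0.916 and 3.56 FPKM in R and 0.267, 0.343 and 0.651 in vehicle. Col8a2 reached 1.47 FPKM in R replicate 3 and 0.0131 to 0.654 elsewhere. Col11a2 lay between 0.527 and 0.887, Col20a1 between 0.474 and 0.885, Col9a3 between 0.144 and 0.632, Col27a1 between 0.124 and 0.381 and Col24a1 between 0.0657 and 0.169 FPKM. Just inside the filter stood Col7a1, with 4 libraries above 1 FPKM, and just outside it Col11a1, with 2. The 4 transmembrane chains Col13a1, Col17a1, Col23a1 and Col25a1 were at or under 0.186 FPKM, as were Col9a2, Col19a1, Col22a1, Col26a1, Col6a4, Col6a5 and Col6a6. No fold is given for these genes.

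The order of the mean FPKM, a unit that depends on the exon lengths used, was not the same in both groups. In vehicle the order of means was Col1a1, Col1a2, Col6a1, Col5a1, Col4a1, Col5a2, Col4a2, Col6a2, Col6a3, Col3a1 and Col2a1, and the ranges of all neighbours in it overlapped. The next gene, Col12a1, was below the range of Col2a1. In R the ranges of Col1a1 and Col1a2 were apart, as were those of Col1a2 and Col5a1, and from there Col5a1, Col4a1, Col6a1, Col5a2 and Col4a2 followed with overlapping ranges.

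Ratios between chains within a library do not depend on how the library was scaled, but their absolute size depends on the exon lengths used for FPKM. The 7 pairs, chosen after the values were seen, are given without a test. The ratio of Col1a1 to Col1a2 was 2.23, 2.03 and 2.30 in R replicates 1, 2 and 3 and 1.63, 1.40 and 1.39 in vehicle replicates 1, 2 and 3. It was higher in every R library, at 2.19 ± 0.139 against 1.47 ± 0.135 (SD, n = 3). The ratio of Col1a1 to Col3a1 was 26.3, 19.8 and 18.1 in R and 5.79, 7.53 and 11.1 in vehicle, again without overlap. Other ratios were similar in both groups: Col4a1 to Col4a2 was 1.23 to 1.45 in R and 1.31 to 1.43 in vehicle, and Col6a1 to Col6a2 was 2.81 to 3.05 in R and 2.75 to 2.98 in vehicle. Col5a1 to Col5a2 was 0.844, 1.41 and 1.68 in R and 1.85, 1.86 and 1.62 in vehicle, and R replicate 1 was the only library under 1. Col6a3 to Col6a1 (0.359 to 0.675 in R, 0.177 to 0.369 in vehicle) and Col1a2 to Col3a1 (7.87 to 11.8 in R, 3.56 to 8.01 in vehicle) overlapped between groups.

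**Figure D4:**
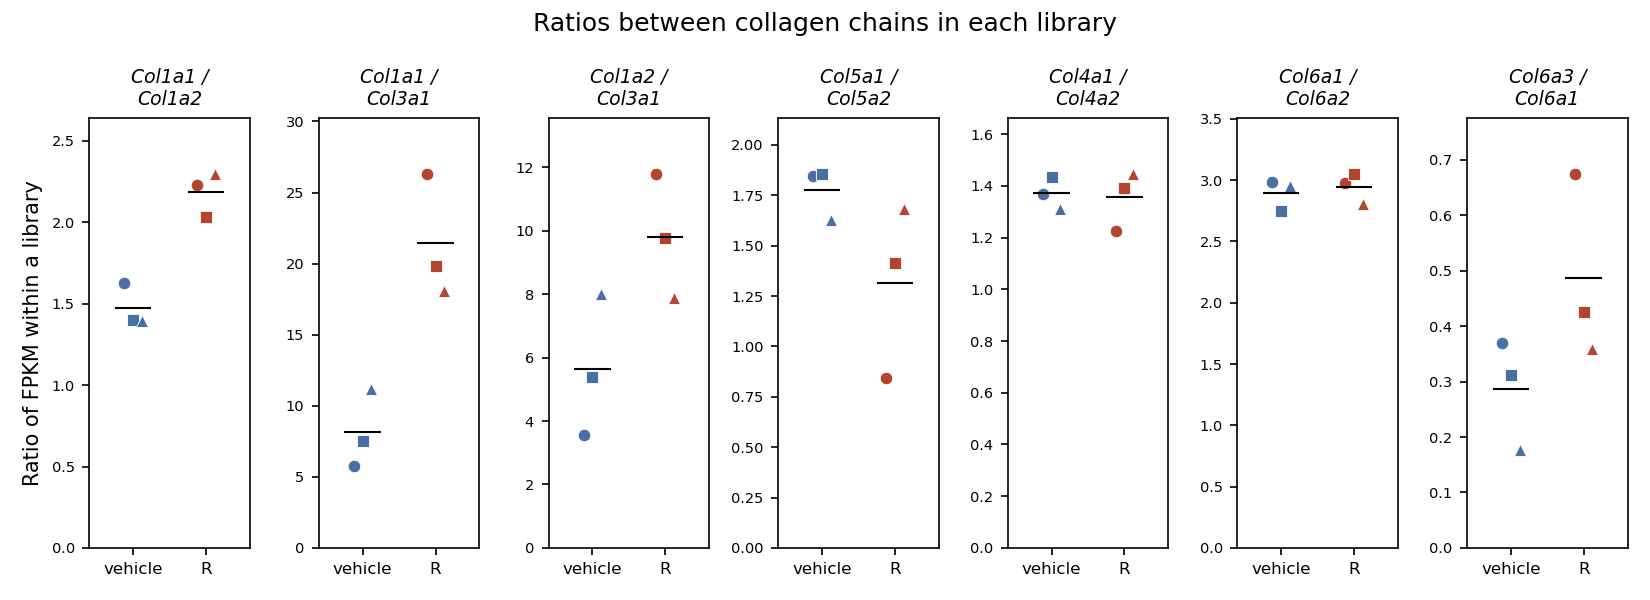
Ratio of FPKM between 2 collagen genes within a library for 7 pairs, each on its own linear axis from 0, with 1 point per library (circle, square and triangle for replicates 1, 2 and 3; vehicle in blue, R in red) and a black line at the mean. The points of Col1a1 to Col1a2 and of Col1a1 to Col3a1 are higher in R without overlap, while those of Col4a1 to Col4a2 and of Col6a1 to Col6a2 are mixed.

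Genes that act on collagen chains outside the family were counted in 6 lists with 81 genes, of which 61 were tested. Of these 61, 7 were called higher and 5 lower in limma, beside 2.39% and 4.43% of all tested genes, with a median log2 change of 0.39. The same shares stand beside the calls of each list below. In the list of chain hydroxylation, glycosylation and folding in the endoplasmic reticulum 19 of 21 genes were tested, 5 were called higher and 1 lower, with a median of 0.40. P3h4, a partner of the lysyl hydroxylase complex, rose from 30.2 ± 5.07 to 63.1 ± 6.47 FPKM (SD, n = 3; log2 change 1.05, SE 0.14, limma adjusted p = 0.00735). P4ha3, a catalytic subunit of prolyl hydroxylase, rose from 9.52 ± 1.999 to 17.4 ± 1.76 FPKM (log2 change 0.82, limma adjusted p = 0.0250). The prolyl isomerase genes Fkbp14 (7.36 ± 1.02 to 11.1 ± 0.435 FPKM) and Fkbp10 (41.4 ± 10.6 to 76.8 ± 12.6 FPKM) rose as well (limma adjusted p = 0.0333 and 0.0486), as did the collagen-binding matrix protein gene Sparc, from 340 ± 110 to 707 ± 84.8 FPKM (limma adjusted p = 0.0472). Serpinh1, which encodes the collagen chaperone HSP47, had 129 to 212 FPKM in vehicle and 259 to 338 in R and just missed (log2 change 0.80, limma adjusted p = 0.0545). Fkbp10 and Serpinh1 were chosen after their values were seen. The lysyl hydroxylase gene Plod1 fell, from 56.1 ± 3.14 to 41.1 ± 0.666 FPKM (log2 change -0.44, SE 0.08, limma adjusted p = 0.0226).

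The calls for P3h4 and Tgm2 held whichever library was left out, and those of the other pathway genes did not. P4ha3 was lost without R replicate 1, 2 or 3 or vehicle replicate 1 (limma adjusted p 0.0524 to 0.0714), and Mmp13 without the same libraries (0.0996 to 0.146). Mmp13 was also lost with equal medians (0.0529), quantile normalization (0.0516), a pseudocount of 5 (0.0575) or no variance trend (0.0550). Fkbp14 (0.0770 to 0.0898), Fkbp10 (0.0732 to 0.128) and Mag (0.0524 to 0.101) were lost without R replicate 1, 2 or 3 or vehicle replicate 1 or 2. Plod1 was lost without R replicate 1 or 3 or vehicle replicate 1 or 2 (0.0524 to 0.0982), and Sparc without R replicate 1, 2 or 3 or vehicle replicate 2 (0.0834 to 0.128). With no variance trend Fkbp10 (0.0550) and Sparc (0.0502) were lost too. Adgrg1 (0.0940 to 0.131) and Lair1 (0.0529 to 0.0844) were lost without R replicate 1 or 2 or vehicle replicate 1 or 2, and Sec23a without any 1 of the 6 libraries (0.0637 to 0.129). Without a filter on low values these genes were lost as well, except Plod1 (0.0670 to 0.146).

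In procollagen export and transcript regulation 7 of 8 genes were tested, and 1 was called: Sec23a, a coat protein of the vesicles that leave the endoplasmic reticulum, at 12.02 ± 0.815 FPKM in vehicle and 16.9 ± 1.22 in R (SD, n = 3; log2 change 0.46, limma adjusted p = 0.0312). The 3 other genes of smallest p were Creb3l2, Creb3l1 and Klhl12, with log2 changes of 0.47, 0.55 and 0.23 that did not pass. In propeptide cleavage and crosslinking 11 of 16 were tested and 1 was called, as lower, with 5 at an unadjusted p under 0.05 (24.0% of all tested genes). Tgm2, a crosslinking transglutaminase, fell from 181 ± 22.0 to 85.4 ± 16.6 FPKM (log2 change -1.08, SE 0.16, limma adjusted p = 0.00971). Lox, the lysyl oxidase that crosslinks fibrils, was at 335, 351 and 460 FPKM in R and 183, 328 and 206 FPKM in vehicle, without overlap, and did not pass (log2 change 0.71, limma adjusted p = 0.122). Loxl3 and Adamts2, a relative of Lox and a cleaver of procollagen ends, had changes of 0.65 and -0.69 that did not pass either.

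Of the proteoglycans and glycoproteins that bind fibrils 8 of 13 were tested and 0 were called in limma, with a median log2 change of 0.84 and 6 at an unadjusted p under 0.05 (24.0% of all tested genes). Biglycan (Bgn) was at 245, 334 and 308 FPKM in R and 136, 230 and 155 FPKM in vehicle (log2 change 0.79, limma adjusted p = 0.0722). Aspn, Fmod and Prelp, which encode small leucine-rich repeat proteins of fibrils, had larger changes of 2.09, 1.82 and 1.47 with SEs of 0.70, 0.70 and 0.49.

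Among collagen receptors 8 of 12 were tested, with 1 called higher and 2 lower (2.39% and 4.43% of all tested genes). Adgrg1, an adhesion receptor, rose from 0.924 ± 0.119 to 1.94 ± 0.311 FPKM (SD, n = 3; limma adjusted p = 0.0366). In vehicle it had 1.06 FPKM in replicate 3 but 0.875 and 0.837 in replicates 1 and 2, so it needed R libraries to pass the filter. Lair1, an inhibitory receptor of leukocytes, fell from 17.4 ± 2.57 to 9.81 ± 1.23 FPKM (limma adjusted p = 0.0224). Mag, a glial adhesion protein gene, was the second lower call, at 1.78 ± 0.0946 FPKM in vehicle and 0.751 ± 0.168 in R. It reached 1 FPKM in the vehicle libraries only and so passed the filter only through the group where it was high. The receptor kinase gene Ddr1 was higher in every R library and missed the threshold (13.4 ± 3.47 to 22.4 ± 2.18 FPKM, limma adjusted p = 0.0501). Among degradation genes 8 of 11 were tested and 1 was called lower: Mmp13, an interstitial collagenase, at 16.7, 12.6 and 15.3 FPKM in R and 51.2, 27.2 and 97.7 FPKM in vehicle (log2 change -1.74, SE 0.40, limma adjusted p = 0.0498). Mmp9, a gelatinase gene, was at 0.485 to 2.37 FPKM in R and 2.11 to 22.1 in vehicle, and the protease inhibitor genes Timp2 and Timp3 had changes of 0.94 and 1.54, none of which passed.

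**Figure D5:**
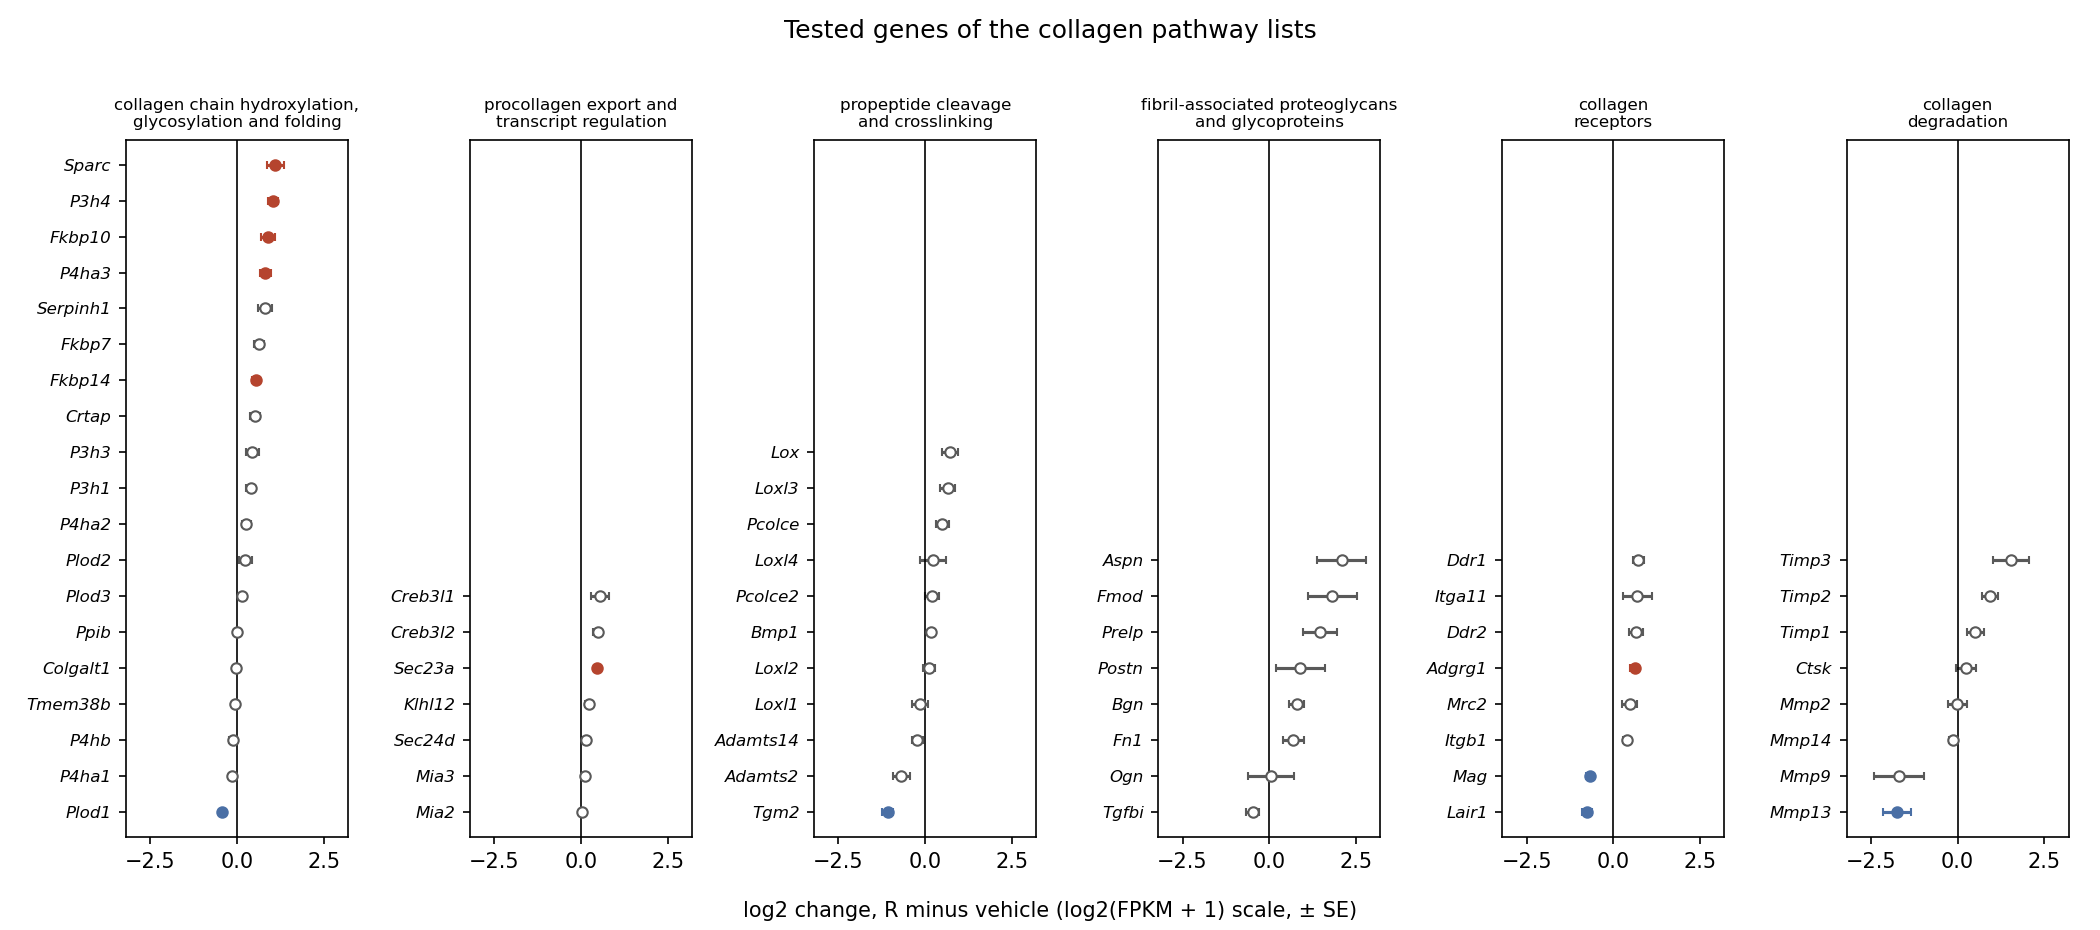
The log2 change (R minus vehicle, log2(FPKM + 1) scale) with its moderated SE of the 61 tested genes in the 6 collagen pathway lists, with genes called higher in red, lower in blue and the others open. The 5 higher calls of the folding list are P3h4, P4ha3, Fkbp14, Fkbp10 and Sparc.

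Marker genes of other cell types differed between the groups too, and their part in the collagen results was not tested. Of 18 macrophage and monocyte genes, 5 were called, all lower. Of all tested genes 2.39% were called higher and 4.43% lower. The 18 genes summed to 16274, 14307 and 13126 FPKM in R and 21454, 17825 and 15990 FPKM in vehicle, with overlap. The log2 change was negative in 16 of them and positive in 2, Cx3cr1 (0.88) and Cd68 (0.11), which did not pass. Msr1 (73.3 ± 9.91 to 26.5 ± 1.65 FPKM, limma adjusted p = 8.4e-04), Fcgr1, Itgam and Aif1 had the smallest p of that list. The summed stromal level was 968, 1246 and 1119 FPKM in R and 776, 1002 and 901 in vehicle, with overlap. Of 11 tested stromal genes 1 was called higher, the pericyte proteoglycan gene Cspg4. The log2 change was positive in 6 of the 11 and negative in 5, with a median of 0.015. Of 9 smooth muscle and pericyte genes 6 were tested and 2 called higher, Tagln and Cspg4. The log2 change was positive in 5 of the 6 and negative in 1, Notch3. Notch3 was at 0.594 to 1.23 FPKM in R and 1.42 to 2.19 in vehicle, without overlap (log2 change -0.58, limma adjusted p = 0.0927). Tagln had 1.42 FPKM in vehicle replicate 2 but 0.589 and 0.427 in vehicle replicates 1 and 3, so it needed R libraries to pass the filter. Cspg4 reached 1 FPKM in the R libraries only, and so passed the filter only through them. Its call was lost without R replicate 2 or 3 or any 1 of the vehicle libraries (limma adjusted p 0.0695 to 0.147), and that of Tagln without R replicate 1, 2 or 3 or vehicle replicate 1 or 3 (0.0706 to 0.154). The 9 listed genes summed to 643, 758 and 426 FPKM in R and 137, 423 and 220 in vehicle, just without overlap. Most of that sum was Acta2, at 411 to 734 FPKM in R and 127 to 406 in vehicle, which was not called (limma adjusted p = 0.103). Of the osteoblast genes 8 of 9 were tested and Sparc was the only call. The list summed to 2856 to 5428 FPKM in R and 2126 to 2938 in vehicle, with overlap. Most of that sum was Spp1, at 2164 to 4601 FPKM in R and 1875 to 2416 in vehicle, followed by Sparc. The defining marker Bglap was at 0 to 1.34 FPKM. The chondrocyte list summed to 6.28 to 7.37 FPKM in R and 3.65 to 8.39 in vehicle, and the adipocyte list to 282 to 284 and 201 to 309; limma called 0 genes in either, with 1 and 3 at an unadjusted p under 0.05.

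The annotated spans of some members overlap that of a neighbour, and no source used here gives the strandedness of the libraries. Reads of opposite genes could therefore be mixed where their exons overlap. Overlap was read from gene spans only, and overlap of exons was not examined. Col10a1 lies wholly opposite Nt5dc1, which was at 4.75 to 5.19 FPKM in R and 5.15 to 5.80 in vehicle. Col18a1 overlaps Slc19a1 by 8825 bases of gene span, and Slc19a1 was at 4.08 to 4.99 FPKM in R and 4.75 to 5.56 in vehicle. Col5a1 overlaps the opposite transcript Gm13372, at 3.01 to 4.02 FPKM in R and 1.28 to 2.25 in vehicle.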

How the data were processed

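RNA sequencing libraries of R-treated cells (3) and vehicle-treated cells (3) were compared. The authors deposited 1 table of FPKM per gene and library. Per the submitters' processing notes, they used edgeR 3.18.1 and the build GRCm38 (mm10). The aligner, counter, annotation and strandedness: not given in the sources used here. Multiplied by exon length, 98.3% to 98.4% of values under 20.5 reads were whole reads within 0.02 reads, which gave the depths. Such reads depend on the reference annotation, so no count test was run.

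The test was a linear model in limma 3.58.1 (R 4.3.3) on log2(FPKM + 1) with trended empirical Bayes variance, over the 11862 genes with FPKM of at least 1 in at least 3 libraries, and was tested on simulated data. SE is the moderated standard error. Named were all collagen members and, per list, up to 4 tested genes of smallest p; some marker genes are not reported here. The members and lists were chosen with earlier results of these data known. Replicate numbers are not stated to pair samples, and same-numbered libraries did not deviate together, so no block was used. The 14 alternatives covered pseudocount, filter, scaling, block, variance trend and leaving out each library.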

Additional observations from a re-analysis of the deposited data

How the results depend on the processing

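Of 276 recomputed changes of tested collagen genes, 273 kept their direction. The exceptions were Col6a1 (0.21) and Col6a2 (0.19) without R replicate 1 and Col2a1 (-0.42) without R replicate 3. Leaving out 1 library gave -0.54 to 0.21 for Col6a1, -0.59 to 0.19 for Col6a2 and -0.42 to 1.69 for Col2a1. The cartilage gene Comp, at 0.08, was -0.0070 with a pseudocount of 5 and -0.41 to 0.68 with 1 library left out. The 4 collagen calls became 0 without a filter on low values, where more genes were tested, and 1 to 4 with 1 library left out. They were 1 without R replicate 1, 2 or 3 or vehicle replicate 1. Among all genes the 284 higher calls became 65 and the 525 lower calls 279 without the filter. With 1 library left out they were 63 to 352 and 272 to 527. The median change of tested members was 0.093 without the filter, when 43 members entered. Col5a2 had an adjusted p of 0.0184 to 0.0850 in limma over the alternatives, Col4a1 0.0073 to 0.114, Col4a2 0.0116 to 0.0930 and Col16a1 0.0184 to 0.0881.

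Same-numbered libraries had correlations of deviations of 0.14, -0.01 and -0.03, and 1 of the 3 pairs was each other's best match. A fit with the replicate block called 4 members: Col5a1 (limma adjusted p = 0.0274) and Col18a1 (0.0189) passed, while Col5a2 and Col16a1 (both 0.0523) did not. Depth limits the low members, of which 11 never had more than 10 estimated reads.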
